A study of Homo sapiens with 12 samples.

Results

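The genes described here are 10 members of the proteoglycan family in NCI-H295R cells: ACAN, VCAN, DCN, LUM, BGN, FMOD, PRELP, OGN, ASPN and HSPG2. They were taken by gene symbol, and all 10 were found among the 60617 genes of the count table. The genes were chosen by name, but the set was put forward with expression values of these same libraries already known, and which of the values counted is not recorded, so the members' changes are given as a description of these libraries, and the counts of members past a threshold are no independent evidence. NCI-H295R is an established line of human adrenocortical carcinoma, a cancer of the steroid-making outer layer of the adrenal gland, and polyadenylated RNA was sequenced from 4 groups of 3 biological replicates, 12 libraries in all. The labels do not number the replicates, and the numbers 1 to 3 used here only name libraries in accession order. The EZH2i group received 62 µM EPZ-6438, which inhibits EZH2, the enzyme that places Polycomb's repressive histone methylation, for 96 h. The CBPi group received 26 µM PRI-724, a compound that keeps β-catenin from its coactivator CBP, for 96 h. The FSK group had DMSO during the first 48 h and forskolin, a plant compound that raises cellular cAMP, at 10 µM during the last 48 h, and the baseline group received DMSO alone for 96 h. All groups are cultures of a single line in the same serum-supplemented medium, with less time under forskolin than under the inhibitors, whose doses the labels call IC-50.

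Proteoglycans are core proteins that carry long sulfated sugar chains called glycosaminoglycans. ACAN (aggrecan) and VCAN (versican) are large chondroitin sulfate proteoglycans that bind hyaluronan, HSPG2 (perlecan) is a heparan sulfate proteoglycan of basement membranes, and the other members are small leucine-rich proteoglycans, of which decorin (DCN), lumican (LUM), fibromodulin (FMOD), osteoglycin (OGN) and asporin (ASPN) are known for binding or ordering collagen fibrils. Aggrecan is best known from cartilage, and decorin and lumican from connective tissue fibroblasts.

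Library totals were 20.6 to 31.5 megacounts, and levels are given as CPM, the count relative to the library total in megacounts after TMM scaling (edgeR's correction for RNA composition). Of the 10 members, 6 passed the filter on low counts (ACAN, VCAN, HSPG2, DCN, LUM and BGN) and 4 did not. Markers of adrenocortical cells matched the label of the line. The 8 markers summed to 651 to 680 CPM with EZH2i, 638 to 715 CPM with CBPi, 4112 to 4350 CPM with FSK and 2099 to 2171 CPM at baseline, and none was at 0 in any group. Each of the 8 was lower than baseline with both inhibitors and higher with FSK. MC2R had the lowest mean, 0.18 CPM with CBPi against 3.53 CPM at baseline. CBPi replicate 2 stood apart from its replicates: the pairs that hold it had a chi-square per degree of freedom of 13.3 and 14.5 against counting noise, where the other 10 replicate pairs had 2.71 to 7.34. In RNA from whole cultures, fewer cells that express a gene and less RNA of it per cell cannot be told apart.

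The start regions of 8 members were in the RefSeq promoter table (GRCh38.p14), and LUM and DCN had no entry. The 250 bases before the start are printed for ACAN, whose level differed from baseline with every treatment, and for ASPN, which was close to undetected, to show how much their base composition differed. Each runs 5′ to 3′ on the gene's strand, and capitals mark CG dinucleotides. ACAN lies at chr15:88803186-88803435 (plus strand) and ASPN at chr9:92482507-92482756 (minus strand).
ACAN: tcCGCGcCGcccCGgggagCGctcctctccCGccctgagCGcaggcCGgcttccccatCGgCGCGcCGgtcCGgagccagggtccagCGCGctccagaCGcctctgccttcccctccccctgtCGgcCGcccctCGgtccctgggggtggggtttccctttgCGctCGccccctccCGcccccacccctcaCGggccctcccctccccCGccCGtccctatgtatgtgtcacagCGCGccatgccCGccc
ASPN: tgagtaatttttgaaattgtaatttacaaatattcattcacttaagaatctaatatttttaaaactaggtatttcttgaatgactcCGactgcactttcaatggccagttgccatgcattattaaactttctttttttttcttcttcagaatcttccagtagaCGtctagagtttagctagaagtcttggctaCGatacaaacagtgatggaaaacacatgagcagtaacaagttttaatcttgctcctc
The ACAN stretch holds 28 CG dinucleotides and is 77.2% G or C, and the ASPN stretch holds 3 and is 32.4% G or C. Of those not printed, HSPG2 holds 33, BGN 16 and VCAN 12. Except for ASPN, the RefSeq starts are not those of GENCODE, from which the gene positions given here come. The VCAN and FMOD stretches lie inside the GENCODE gene, and those of BGN and of 1 OGN start reach into it. Of the other members that did not pass the low-count filter, FMOD holds 9, and PRELP and both annotated starts of OGN hold 0. The median over the 35116 start regions in the table is 11. The 4 members with an entry that passed the filter had 12 to 33 CG dinucleotides, and the 4 that did not had 0 to 9, a description of 8 genes with no test. The cAMP response element TGACGTCA, searched on both strands, was in none of these member stretches and in 1.65% of all start regions of this length. Its shorter core TGACG, which the full element contains, was found for VCAN and FMOD and in 21.2% of all. The AP-1 site TGACTCA was in none of them (4.2% of all), and the TCF/LEF core CTTTGA only in that of BGN (11.2% of all).

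The large hyaluronan-binding proteoglycans moved in opposite directions with both inhibitors and in the same direction with FSK. ACAN (ENSG00000157766, chr15:88803442-88875354, plus strand, GRCh38) had 0.803, 0.927 and 0.728 CPM in EZH2i libraries, 0.678, 0.414 and 0.731 CPM in CBPi libraries, 4.48, 5.5 and 4.48 CPM in FSK libraries and 7.52, 10.3 and 9.97 CPM in baseline libraries. Every treated library lay below every baseline library, and the FSK libraries lay between the inhibitor libraries and baseline. The means were 0.819 ± 0.1 CPM with EZH2i, 0.608 ± 0.169 CPM with CBPi, 4.82 ± 0.591 CPM with FSK and 9.25 ± 1.51 CPM at baseline (SD, n = 3 each). ACAN was 11.3-fold lower than baseline with EZH2i (log2 fold change -3.5 ± 0.17 SE), 15.1-fold lower with CBPi (-3.91 ± 0.19 SE) and 1.92-fold lower with FSK (-0.94 ± 0.13 SE). Between the inhibitors the log2 difference, EZH2i minus CBPi, was 0.42 ± 0.29 SE, their libraries overlapped, and the difference did not pass (edgeR adjusted p = 0.263).

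VCAN (ENSG00000038427, chr5:83471465-83582303, plus strand), whose product fills the loose matrix around many cell types, had the highest mean CPM of the members at baseline. It had 379, 373 and 332 CPM in EZH2i libraries, 447, 489 and 447 CPM in CBPi libraries, 65.3, 76.2 and 68.9 CPM in FSK libraries and 168, 142 and 145 CPM in baseline libraries. All inhibitor libraries lay above baseline and all FSK libraries below it. VCAN was 2.39-fold higher than baseline with EZH2i (log2 fold change 1.25 ± 0.07 SE), 3.04-fold higher with CBPi (1.61 ± 0.07 SE; 1.55 without CBPi replicate 2) and 2.16-fold lower with FSK (-1.11 ± 0.07 SE). Its level was 1.28-fold lower with EZH2i than with CBPi (log2 difference -0.35 ± 0.07 SE; -0.3 without CBPi replicate 2), and the libraries of these groups did not overlap. An antisense gene, VCAN-AS1, overlaps VCAN but held only 56 counts over all 12 libraries.

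HSPG2 (ENSG00000142798, chr1:21822245-21937297, minus strand) stayed within 1.26-fold of baseline with every treatment. It had 110, 110 and 99.5 CPM in EZH2i libraries, 123, 100 and 121 CPM in CBPi libraries, 140, 172 and 153 CPM in FSK libraries and 148, 127 and 126 CPM in baseline libraries. Only the fall with EZH2i passed against baseline (1.26-fold lower, log2 fold change -0.33 ± 0.09 SE). The values were -0.22 ± 0.09 SE with CBPi (edgeR adjusted p = 0.058) and 0.21 ± 0.09 SE with FSK (edgeR adjusted p = 0.0698), and each of these passed under some other settings or with 1 library left out. Against FSK, HSPG2 was 1.46-fold lower with EZH2i and 1.35-fold lower with CBPi.

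**Figure D1:**
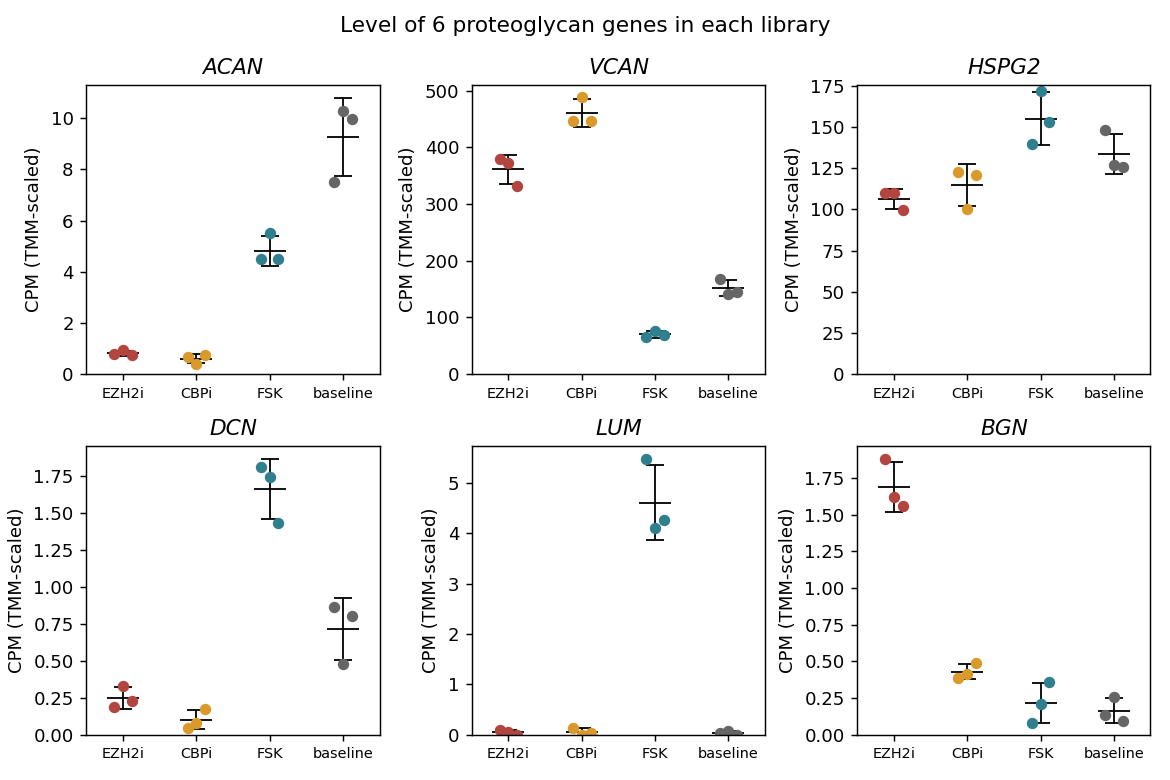
TMM-scaled CPM (linear axis from 0, each panel with its own range) of the 6 members that passed the low-count filter, by group: points are libraries, horizontal bars the mean and whiskers the SD of 3 libraries. LUM sits at 4.1 to 5.46 CPM with FSK and at 0.145 CPM or less in the other 9 libraries, while VCAN is above baseline with EZH2i and CBPi and below it with FSK.

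Among the small leucine-rich members, LUM and DCN were higher with FSK. LUM (ENSG00000139329, chr12:91102629-91111831, minus strand) was near the limit of detection outside the FSK group. Its counts as deposited were 3, 2 and 0 in EZH2i libraries, 3, 0 and 1 in CBPi libraries, 133, 99 and 95 in FSK libraries and 1, 2 and 0 in baseline libraries. The FSK libraries stood clear of the other 9 libraries, which overlapped one another. The FSK libraries together held 327 counts and the baseline libraries 3, a ratio of 108 after scaling for depth, with an exact 95% counting interval of 36.7 to 528 that covers counting error only. The fitted log2 fold change of 6.6 ± 0.43 SE rests on those 3 baseline counts and on the prior count, and was 7.36 without baseline replicate 2. LUM passed the low-count filter through the FSK libraries alone, so it had to differ there. The ratio to baseline was 1.26 with EZH2i (counting interval 0.246 to 8.14) and 1.28 with CBPi (0.216 to 8.71), so a change of several-fold in either direction was not detectable at this depth.

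DCN (ENSG00000011465, chr12:91140484-91183123, minus strand) lies next to LUM on chromosome 12 and differed from baseline in all 3 treatments. Its counts were 6, 10 and 7 in EZH2i libraries, 1, 2 and 5 in CBPi libraries, 44, 42 and 32 in FSK libraries and 19, 13 and 17 in baseline libraries. In CPM no treated group overlapped baseline: FSK was above it and both inhibitors below it. DCN was 2.79-fold lower than baseline with EZH2i (log2 fold change -1.48 ± 0.36 SE), 6.21-fold lower with CBPi (-2.63 ± 0.45 SE; -2.49 without CBPi replicate 2 and -3.29 without CBPi replicate 3, on 8 counts in the CBPi group) and 2.37-fold higher with FSK (1.24 ± 0.26 SE). The mean was 1.66 ± 0.199 CPM with FSK against 0.715 ± 0.207 CPM at baseline (SD, n = 3 each), so even the raised level was low. The other genes of this chromosome 12 cluster, KERA (keratocan) and EPYC (epiphycan), had 2 and 1 counts over all 12 libraries.

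BGN (ENSG00000182492, chrX:153494939-153509554, plus strand), which encodes biglycan, the closest relative of decorin, was highest with EZH2i. Its counts were 61, 49 and 47 in EZH2i libraries, 8, 10 and 14 in CBPi libraries, 2, 5 and 8 in FSK libraries and 3, 7 and 2 in baseline libraries. The EZH2i libraries stood above the other 9, and the FSK and baseline libraries overlapped. BGN passed the low-count filter only with its EZH2i libraries counted, so its rise in that group is not independent of the filter. BGN was 9.68-fold higher than baseline with EZH2i (log2 fold change 3.28 ± 0.34 SE) and 3.86-fold higher with EZH2i than with CBPi (log2 difference 1.95 ± 0.28 SE). With CBPi it was 2.51-fold higher than baseline (1.33 ± 0.46 SE, edgeR adjusted p = 0.0182). That call was lost without CBPi replicate 3 (adjusted p = 0.0621), baseline replicate 1 (0.056) or baseline replicate 3 (0.0747) and with DESeq2 (0.0515). With FSK the value was 0.31 ± 0.54 SE and did not pass. BGN overlaps the start of HAUS7 on the opposite strand, which held 5714 counts over all libraries, and the strand setting of the counting is not given in the sources used here.

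**Figure D2:**
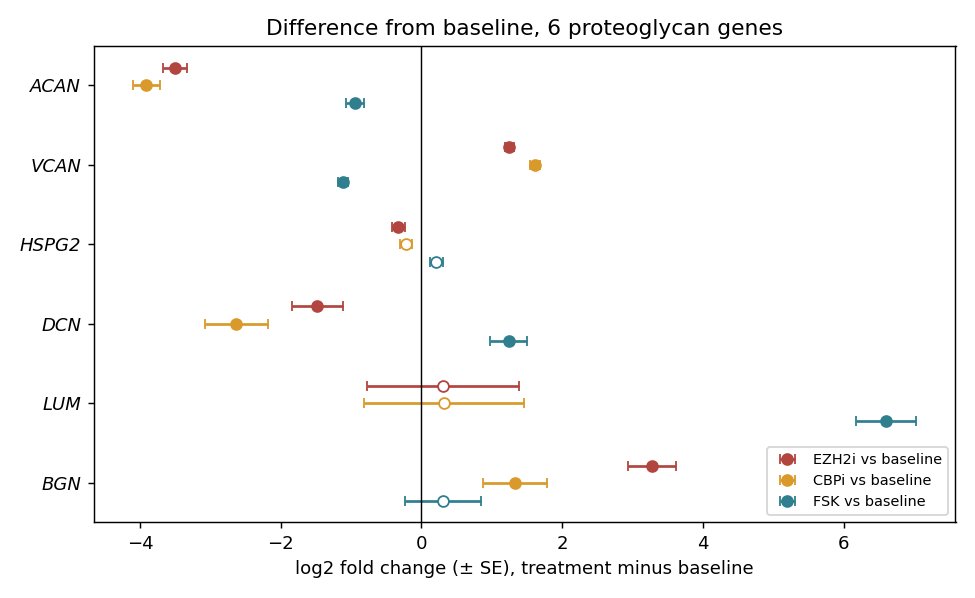
Log2 fold change from baseline (treatment minus baseline, whiskers ± SE) of the same 6 genes, filled where the adjusted p was under 0.05 and open where not. ACAN and VCAN lie on opposite sides of 0 with EZH2i and CBPi and both below 0 with FSK, while DCN is below 0 with both inhibitors and above it with FSK.

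The other 4 members were barely detected. Over all 12 libraries FMOD had 5 counts, PRELP 8, OGN 1 and ASPN 3. PRELP, which encodes a basement membrane-anchoring leucine-rich protein, had 2.5, 2 and 1 counts in EZH2i libraries, 0, 0 and 1 in CBPi libraries, 0, 1 and 0 in FSK libraries and 0.5, 0 and 0 in baseline libraries. ASPN had 1 count in each CBPi library and 0 in the other 9. A library with 0 counts allows up to 3 counts, which is 0.0926 to 0.145 CPM in these libraries. No difference between groups was therefore testable for these genes. OGN and ASPN lie inside the gene CENPP on the opposite strand, and with so few reads their own transcription cannot be told apart from its reads. FMOD and PRELP lie near OPTC (0 counts) on chromosome 1, and OGN and ASPN near OMD (1 count) and ECM2 on chromosome 9. ECM2, an extracellular matrix gene beside ASPN, was the only one of these 3 neighbours with more than 1 count. It had 0.83 ± 0.029 CPM with EZH2i, 1.69 ± 0.204 CPM with CBPi, 0.762 ± 0.0936 CPM with FSK and 2 ± 0.113 CPM at baseline, and fell with EZH2i (log2 fold change -1.27, edgeR adjusted p = 6.32e-06) and with FSK (-1.39, edgeR adjusted p = 6.24e-06). ECM2 also lies inside CENPP on the opposite strand, and the part of CENPP reads in its values was not tested.

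The counts of members past the threshold stand beside those of all 20360 genes tested. With EZH2i against baseline 5 of 6 members passed (57.8% of all genes did), 2 higher (29.5%) and 3 lower (28.3%). With CBPi against baseline 4 of 6 passed (58.9%), 2 higher (29.8%) and 2 lower (29%). With FSK against baseline 4 of 6 passed (50.6%), 2 higher (25.5%) and 2 lower (25.1%). Over all genes, that last split was 5197 higher and 5102 lower, and 4119 higher and 6257 lower with libraries scaled by size alone. Of EZH2i against CBPi 2 of 6 passed (43.9%), 1 higher (21.7%) and 1 lower (22.2%), and 1 passed a test against a fold of 1.5, as 4.88% of all genes did. Of EZH2i against FSK 6 of 6 passed (61.6%), 2 higher (30.3%) and 4 lower (31.3%). Of CBPi against FSK 5 of 6 passed (58.8%), 1 higher (29.3%) and 4 lower (29.5%). Nothing is read from these counts, since the set was put forward with such values known. In addition, LUM passed the filter only through its FSK libraries, and BGN only with its EZH2i libraries counted, the groups where each was high. The comparisons with baseline share the baseline libraries.

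VCAN was 5.15-fold higher with EZH2i than with FSK and 6.57-fold higher with CBPi than with FSK. ACAN was 5.86-fold lower with EZH2i and 7.84-fold lower with CBPi than with FSK, and DCN 6.6-fold lower with EZH2i and 14.7-fold lower with CBPi (log2 difference -3.88 ± 0.38 SE, and -4.54 without CBPi replicate 3). BGN was 7.81-fold higher with EZH2i than with FSK. Its difference of CBPi from FSK (log2 difference 1.02 ± 0.44 SE) did not pass (edgeR adjusted p = 0.0526), though it passed with libraries scaled by size alone (adjusted p = 0.04), with genes filtered at 1 CPM (0.0488) and without FSK replicate 3 (0.0144). DCN was 2.23-fold higher with EZH2i than with CBPi and did not pass (adjusted p = 0.0907), but passed without CBPi replicate 3 (0.0463).

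Levels were divided by the deposited gene length to set different genes side by side. How far that length matches the transcripts expressed in these cells was not tested. The shares, ratios and places of genes given here therefore hold for these lengths only, and a different length would move a gene's place. On this scale VCAN and HSPG2 made up most of the summed level of the 10 genes in every library. VCAN held 78.4 to 78.8% of the sum in EZH2i libraries, 81.1 to 85.2% in CBPi libraries, 30.1 to 30.6% in FSK libraries and 54.2 to 55.9% in baseline libraries. The ratio of VCAN to HSPG2 per length was 4.11 to 4.27 with EZH2i, 4.47 to 6.02 with CBPi, 0.546 to 0.577 with FSK and 1.38 to 1.42 at baseline, so HSPG2 led only in FSK libraries. The high end of the CBPi range is replicate 2, and replicates 1 and 3 had 4.47 and 4.57. The third place differed between the groups: it went to BGN with EZH2i (0.702 CPM per kb) and with CBPi (0.179), to LUM with FSK (1.72) and to ACAN at baseline (0.848). The first 4 places did not overlap between neighbours in any group. Among the lower places, overlapping neighbours included DCN and LUM with EZH2i, ACAN and LUM as well as LUM and ASPN with CBPi, DCN and BGN with FSK, and BGN and DCN at baseline.

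**Figure D3:**
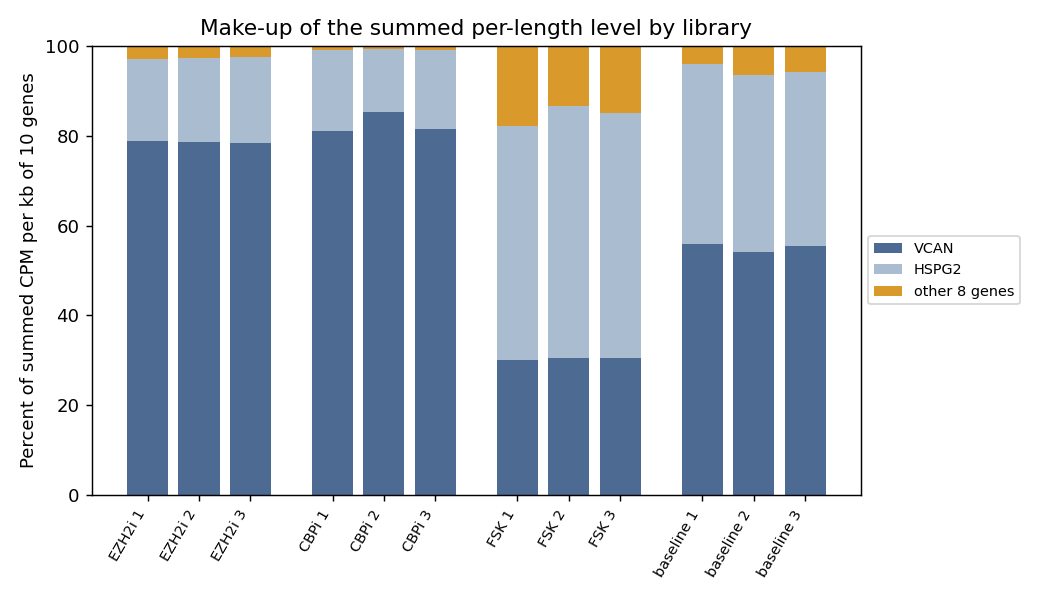
Share (percent) of VCAN, HSPG2 and the other 8 genes in the summed CPM per kb of the 10 genes, 1 bar per library. VCAN takes over 78% of each EZH2i and CBPi bar and about 30% of each FSK bar.

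Markers of other cell types that express these genes were set beside the members. Of all genes, 29.5% were called higher and 28.3% lower with EZH2i, 29.8% and 29% with CBPi, and 25.5% and 25.1% with FSK. Of 12 fibroblast markers 7 were tested, and with FSK all 7 fell, COL1A2 most (log2 fold change -2.42) and FAP least (-0.62). The summed level of the 12 was 109 to 119 CPM with EZH2i, 74 to 77.5 CPM with CBPi, 46.1 to 50 CPM with FSK and 94.8 to 98.9 CPM at baseline. With EZH2i 2 rose and 2 fell, and with CBPi 0 rose and 6 fell. TCF21 was at 0 in every library, POSTN in every CBPi and baseline library and DPT in every CBPi library, and these 3, PDGFRA and PDGFRB did not pass the low-count filter. Of 12 chondrocyte markers 10 were tested. With EZH2i 5 rose and 2 fell, with CBPi 1 rose and 6 fell, and with FSK 0 rose and 3 fell. COL2A1 and COL11A1 fell in each, while SOX9, COL9A1, COL9A2, COL9A3 and COL11A2 rose with EZH2i (log2 fold change 0.54 to 1.07). SOX9 fell with CBPi (-1.26) and with FSK (-0.89), and COL11A2 was the 1 that rose with CBPi (1.03). Their summed level was 64 to 68.2 CPM with EZH2i, 45.5 to 50.8 CPM with CBPi, 64.3 to 69.4 CPM with FSK and 130 to 145 CPM at baseline, with none of the 12 at 0 throughout a group. Most of that sum was COL11A1, with a mean of 46.9 CPM with EZH2i, 35.2 CPM with CBPi, 55.3 CPM with FSK and 123 CPM at baseline. Without it, the other 11 summed to 19.1 to 19.5 CPM with EZH2i, 11.7 to 13.6 CPM with CBPi, 10.6 to 13.9 CPM with FSK and 14 to 15.1 CPM at baseline. That sum was above baseline with EZH2i and below it with CBPi and FSK, and ACAN was below baseline with each. The part of these markers in the ACAN values was not tested. Markers of endothelial cells summed to 4.24 CPM or less and those of myeloid cells to 2.52 CPM or less in every library. Markers of smooth muscle and pericytes summed to 92.6 to 96.6 CPM with EZH2i, 74.6 to 84.1 CPM with CBPi, 28 to 31.6 CPM with FSK and 114 to 115 CPM at baseline, of which RGS5 held a mean of 85 CPM with EZH2i, 66.9 CPM with CBPi, 10.5 CPM with FSK and 98.1 CPM at baseline. The part of these other lists in the members' values was not tested.

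Genes whose differences from baseline were closest to those of ACAN, LUM and DCN were found by the root mean square difference over the 3 log2 fold changes from baseline, among 16606 or 16607 genes whose log2 CPM averaged 0 or more. For ACAN they were TBXA2R, the thromboxane receptor gene (0.49), FGFR4, a fibroblast growth factor receptor gene (0.53), and SUSD3 (0.68). FGFR4 had 9.03 CPM with EZH2i, 9.11 with CBPi, 35.3 with FSK and 78.5 at baseline. For DCN they included STAR, which moves cholesterol into mitochondria (0.46), and MOB4 (0.49). These distances are near the error of the DCN fold changes (SE 0.36 with EZH2i, 0.45 with CBPi and 0.26 with FSK). For LUM, whose distances carry the error of fold changes on 3 to 5 counts (SE 1.08 with EZH2i and 1.13 with CBPi), they were MMP10, a matrix metalloproteinase gene (1.2), VGF (1.44) and GCNA (1.45). MMP10 had 1.34 CPM with EZH2i, 0.326 with CBPi, 15.1 with FSK and 0.403 at baseline.

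The other genes of the pathway were taken from 10 lists of 130 genes, of which 103 passed the low-count filter. With EZH2i 46 rose and 26 fell, 69.9% of those tested beside 57.8% of all genes, and the median log2 fold change was 0.16 beside 0.024 over all genes. With CBPi 41 rose and 32 fell, 70.9% beside 58.9%, with a median of 0.01 beside 0.015. With FSK 25 rose and 44 fell, 67% beside 50.6%, with a median of -0.08 beside 0.015.

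The genes that build chondroitin and dermatan sulfate, the chains carried by ACAN, VCAN, DCN and BGN, were called higher more often than lower with the inhibitors and lower more often with FSK. Of 15 tested, 11 rose and 0 fell with EZH2i (median log2 fold change 0.49), 10 rose and 3 fell with CBPi (0.5), and 2 rose and 7 fell with FSK (-0.4). Of all genes, 29.5% were called higher and 28.3% lower with EZH2i, 29.8% and 29% with CBPi, and 25.5% and 25.1% with FSK, and the same shares apply to the lists that follow. CHST3, a chondroitin 6-O-sulfotransferase, had 20.2 ± 1.69 CPM with EZH2i, 29.2 ± 3.42 CPM with CBPi, 4.39 ± 0.43 CPM with FSK and 7.41 ± 1.04 CPM at baseline (SD, n = 3 each). On the log2 scale it rose by 1.45 with EZH2i (edgeR adjusted p = 4.98e-10) and by 1.98 with CBPi (2.85e-12) and fell by 0.75 with FSK (0.000108). CHST11, a chondroitin 4-O-sulfotransferase, had 68.3 ± 2.66 CPM with EZH2i, 78.5 ± 4.49 CPM with CBPi, 37.5 ± 2.7 CPM with FSK and 38.2 ± 2.32 CPM at baseline, and passed with both inhibitors but not with FSK. CSGALNACT1, which starts the chondroitin chain, fell by 2.81 with FSK (0.158 ± 0.114 CPM against 1.09 ± 0.412 CPM at baseline). CHST15 rose by 2.72 with EZH2i and by 1.45 with CBPi, where its libraries overlapped baseline, on 89 counts with EZH2i and 29 with CBPi against 10 at baseline. CHST15 passed the low-count filter only with its EZH2i libraries counted. Its rise in that group, which is among the 11 above, is therefore not independent of the filter.

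Genes for heparan sulfate, the chain of HSPG2, the syndecans and the glypicans, rose in 11 and fell in 4 of 18 with EZH2i (median 0.38), rose in 9 and fell in 3 with CBPi (0.15), and rose in 2 and fell in 12 with FSK (-0.64). EXT1, a polymerase subunit of the chain, had 129 ± 5.49 CPM with EZH2i, 103 ± 1.85 CPM with CBPi, 54.1 ± 1.37 CPM with FSK and 57.3 ± 3.44 CPM at baseline. HS3ST1, a 3-O-sulfotransferase, had 29.6 ± 1.39 CPM with EZH2i, 24.8 ± 2.74 CPM with CBPi, 4.11 ± 0.469 CPM with FSK and 17.1 ± 0.713 CPM at baseline. HS2ST1, the 2-O-sulfotransferase, went the other way from most with the inhibitors and fell in all 3 treatments, to 80.3 ± 3.03 CPM with EZH2i, 74.3 ± 1.31 CPM with CBPi and 96.3 ± 5.5 CPM with FSK, against 138 ± 3.79 CPM at baseline. Keratan sulfate is a chain that LUM and FMOD, but not these members alone, can carry. Of its 8 genes, 1 rose and 1 fell with EZH2i, 4 rose and 1 fell with CBPi, and 0 rose and 5 fell with FSK. The sulfotransferase gene CHST1 fell in each, and CHST2 rose by 1.05 with EZH2i and 1.09 with CBPi.

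Of the 7 genes of the linkage region between core protein and chain, 1 rose and 2 fell with EZH2i, 0 rose and 2 fell with CBPi, and 1 rose and 3 fell with FSK. PXYLP1, a phosphatase that acts on the linkage xylose, had 291 ± 1.71 CPM with EZH2i, 203 ± 11.3 CPM with CBPi, 77.6 ± 2.83 CPM with FSK and 217 ± 2.22 CPM at baseline. Among 8 precursor genes, PAPSS2, which makes the sulfate donor for sulfotransferases, fell with both inhibitors and rose with FSK, at 13.9 ± 1.22 CPM with EZH2i, 11 ± 1.3 CPM with CBPi and 41.7 ± 1.74 CPM with FSK, against 19.4 ± 1.62 CPM at baseline. In this list 2 rose and 3 fell with EZH2i, 3 rose and 4 fell with CBPi, and 1 rose and 3 fell with FSK.

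Of 18 other cell-surface and basement membrane proteoglycan genes tested, 7 rose and 5 fell with EZH2i, 6 rose and 9 fell with CBPi, and 5 rose and 7 fell with FSK. SDC1, a syndecan, fell to 71 ± 2.8 CPM with EZH2i and 81.4 ± 9.64 CPM with CBPi, against 176 ± 7.8 CPM at baseline. With FSK, SDC4 rose to 84.2 ± 3.44 CPM, against 27.4 ± 1.48 CPM at baseline, and SDC2 fell to 1.04 ± 0.171 CPM, against 3.5 ± 0.44 CPM at baseline. Of the hyaluronan-linked genes 5 of 10 were tested. CD44, a hyaluronan receptor gene, had 19.8 ± 0.704 CPM with EZH2i, 28.6 ± 1.16 CPM with CBPi, 7.09 ± 0.977 CPM with FSK and 11.3 ± 0.763 CPM at baseline, and passed in each comparison with baseline. NCAN and BCAN, the brain relatives of ACAN and VCAN, and HAPLN1, the cartilage link protein gene, did not pass the low-count filter. Of the other small leucine-rich genes only TSKU and ECM2 were tested.

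**Figure D4:**
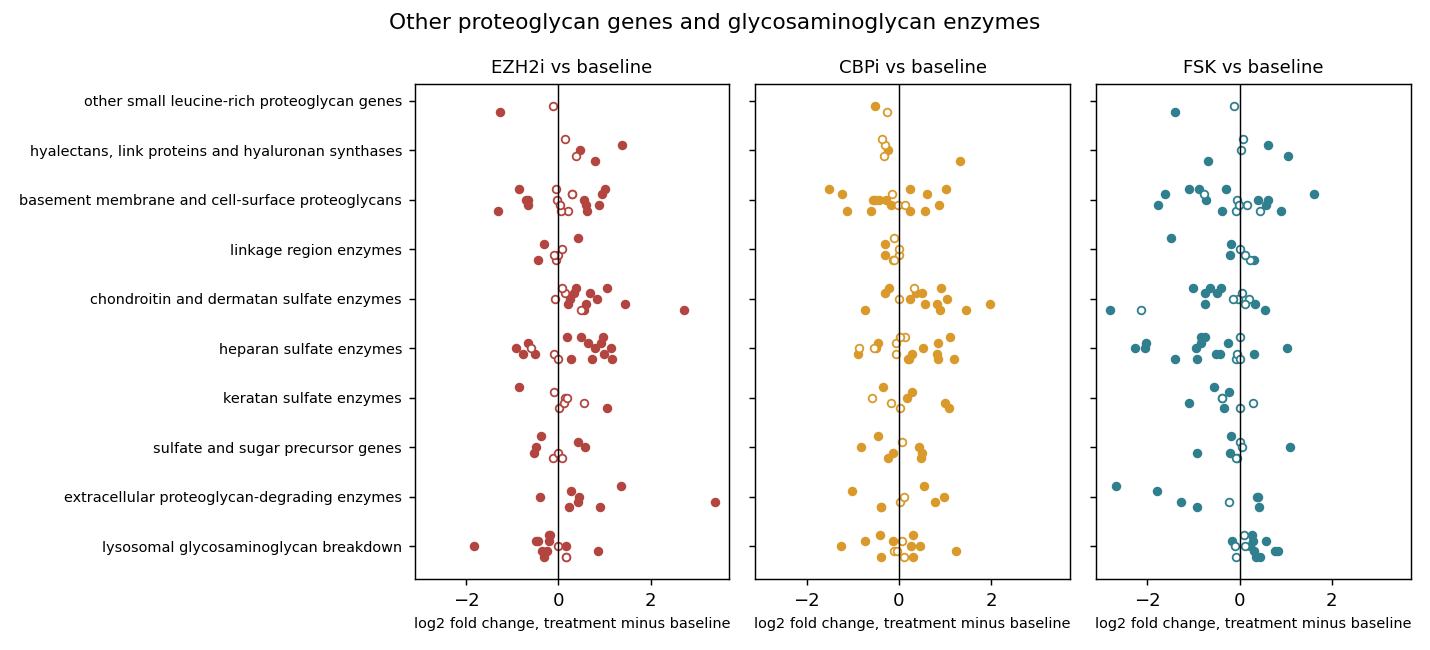
Log2 fold change from baseline (treatment minus baseline) of the 103 tested genes of 10 lists, 1 point a gene, filled where the adjusted p was under 0.05, with points spread vertically only for legibility. Chondroitin and heparan sulfate genes lie mostly right of 0 with EZH2i and left of it with FSK.

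Enzymes that cut proteoglycans or hyaluronan outside the cell rose in 7 and fell in 1 of 8 with EZH2i (median 0.43), rose in 3 and fell in 3 with CBPi (0.06), and rose in 3 and fell in 4 with FSK (-0.57). ADAMTS15, a protease that cleaves aggrecan and versican, had 5.92 ± 0.263 CPM with EZH2i, 0.965 ± 0.134 CPM with CBPi, 0.223 ± 0.0795 CPM with FSK and 0.577 ± 0.245 CPM at baseline. It rose by 3.4 on the log2 scale with EZH2i (± 0.2 SE, edgeR adjusted p = 2.15e-11). ADAMTS9, of the same protease group, had 86.1 ± 2.94 CPM with EZH2i, 35 ± 4.23 CPM with CBPi, 20.5 ± 0.827 CPM with FSK and 71.4 ± 1.48 CPM at baseline. CEMIP, needed for hyaluronan breakdown, had 20 ± 0.124 CPM with EZH2i, 11.4 ± 1.31 CPM with CBPi, 1.21 ± 0.0617 CPM with FSK and 7.81 ± 1.16 CPM at baseline. The aggrecanase genes ADAMTS4 and ADAMTS5 did not pass the low-count filter. Of 14 genes of lysosomal breakdown, 3 rose and 9 fell with EZH2i (median -0.21), 5 rose and 5 fell with CBPi (0), and 9 rose and 1 fell with FSK (0.27). HYAL1, a hyaluronidase gene, fell to 6.99 ± 0.323 CPM with EZH2i and 10.4 ± 0.262 CPM with CBPi, against 24.8 ± 2.42 CPM at baseline.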

How the data were processed

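Polyadenylated RNA of 12 NCI-H295R libraries in 4 groups was analysed from the count table. The authors deposited estimated counts for 60617 Ensembl genes, made from reads aligned with STAR to hg38 and counted with featureCounts, per the submitters' processing notes, of which 65.6% of the non-zero values are whole within 1e-06. The sources used here do not give tool versions, annotation release, strand setting or the treatment of multimapping reads. A gene length column of another unit, deposited by the authors, was used for levels per kb. Symbols were matched for 60261 genes, and positions come from GENCODE release 29 (GRCh38).

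The values were rounded to whole numbers for edgeR 4.0.16 (R 4.3.3). filterByExpr by group left 20360 genes, TMM scaled the libraries, and 1 robust quasi-likelihood model over all 12 libraries tested each pair of groups, with Benjamini-Hochberg adjustment over all genes tested and a threshold of 0.05. SE is the size of the log2 fold change divided by the square root of F. P-values measure the spread between cultures of 1 line. The members and gene lists were chosen with earlier results of these data known. Genes named from a list were among the 3 called genes of largest change in a comparison, and some, such as CHST11, ADAMTS9, HS3ST1 and HS2ST1 in further comparisons, are given in every group. Marker genes such as COL2A1, COL11A1 and RGS5, and NCAN, BCAN, HAPLN1, ADAMTS4 and ADAMTS5 among genes under the filter, were named after their values were seen. Of the genes closest to DCN, 1 is not reported here. Alternatives were DESeq2 1.42.0, RLE or library-size scaling, other filters, fits of 2 groups, each library left out and a test against a fold of 1.5 (glmTreat). The pipeline was tested on simulated data.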

Additional observations from a re-analysis of the deposited data

How the results depend on the processing

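Recomputed values of the 6 tested members in all 6 comparisons kept their direction wherever a call was made, under DESeq2, other scalings, other filters, fits of only the groups compared and each library left out. Of 425 such values, 409 also stayed on the same side of the threshold, 4 no longer passed and 12 newly passed. The 4 are BGN between CBPi and baseline, and the 12 are HSPG2 against baseline with CBPi (5) or FSK (3), DCN between EZH2i and CBPi (1) and BGN between CBPi and FSK (3). A test against a fold of 1.5 called 1 member between EZH2i and CBPi in place of 2, and 24, 22 and 23 related genes with EZH2i, CBPi and FSK in place of 72, 73 and 69, since it asks for a larger change. With 1 library left out, the members called numbered 5 for EZH2i against baseline in each case, 3 to 5 for CBPi, 4 to 5 for FSK, 2 to 3 for EZH2i against CBPi, 6 for EZH2i against FSK in each case and 5 to 6 for CBPi against FSK. Against baseline, EZH2i then called 68 to 75 related genes, CBPi 61 to 71 and FSK 65 to 68. The fitted log2 fold change of LUM with FSK was 6.13 to 7.36 with 1 library left out, and that of DCN with CBPi -3.29 to -2.36. Depth limits LUM, DCN and BGN, whose baseline libraries hold 3, 49 and 12 counts in all, and leaves FMOD, PRELP, OGN and ASPN untested. No paired analysis was possible because the labels give no replicate numbers, and those used here only name the libraries. The sum of chondrocyte markers without COL11A1 was added after the data were seen.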
